A study of Homo sapiens with 12 samples.

Results

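AC16 cells that had been in doxorubicin for 6 days were compared with AC16 cells that had been in it for 2 days, over every gene with enough counts to test. The comparison rests on 6 of the 12 libraries of the series, 3 per exposure, and on 17320 of the 60607 genes in the count table. AC16 was derived by fusion of adult human ventricular cells with transformed fibroblasts, and the labels describe it as a wild-type cardiomyocyte line. Both groups were grown in DMEM/F12 with serum and antibiotics and received 0.1 µM doxorubicin, so the drug and its concentration were shared and the length of exposure differed. The other libraries were 3 controls without the drug and 3 with 4 days of exposure, and they served here as reference levels. In the titles the exposures read 48, 96 and 112 hours, with day 6 in the name of every library, whereas the protocol speaks of 2, 4 and 6 days. The labels do not say whether each exposure ended at harvest, so cells of the shorter exposure may have been sampled after a time without the drug. Whether replicates were grown as separate cultures is not stated, so the spread behind the p-values may be technical.

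Doxorubicin is an anthracycline that traps topoisomerase II on cut DNA and leaves double-strand breaks. Broken DNA activates the transcription factor p53, which turns on genes for arrest of the cell cycle, repair and death, and whose own product MDM2 limits it. Damaged cells can also switch on interferon-stimulated antiviral genes and, later, a secretory program of NF-kB targets such as chemokines, colony-stimulating factors and interleukins that is known from senescent cells. Anthracycline treatment of patients is limited by injury to the heart muscle.

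Total counts were 21226441, 15579624 and 17773289 in the libraries of 2 days and 15546671, 17708295 and 20683081 in those of 6 days, and the whole series spanned 14835743 to 21226441. Levels below are CPM, counts divided by the TMM-scaled library total, given per library in the order of replicates 1 to 3, and are not per length, so they compare 1 gene across groups and not genes with each other. A gene was called changed where edgeR's quasi-likelihood test, with Benjamini-Hochberg adjustment across the 17320 genes, gave an adjusted p under 0.05, and log2 fold changes are 6 days over 2 days, ± SE. The label of cardiomyocyte was not borne out by defining genes of the sarcomere, most of which had few or no counts. Of 24 such genes 7 were tested, and the heavy chains MYH6 and MYH7, the light chain MYL2 and the troponin TNNT2 had 3, 3, 0 and 3 counts summed over the 3 libraries of 6 days and 0, 1, 0 and 2 over those of 2 days. The 7 tested members summed to 17.0 to 22.8 CPM per library at 2 days and 22.6 to 27.0 CPM at 6 days. Of 16 fibroblast genes 15 were tested, with a summed level of 9205 to 9338 CPM at 2 days and 5084 to 5546 CPM at 6 days. The collagen gene COL1A1, given below, made up a large part of these sums, which are not adjusted for gene length.

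The 2 exposures differed over much of the transcriptome. Of the 17320 genes, 7414 were called changed (42.8%), with 3437 higher after 6 days (19.8%) and 3977 lower (23.0%). Differences of at least 2-fold were fewer, with 855 genes higher (4.94%) and 805 lower (4.65%), 9.58% in all. The libraries of the 2 groups did not overlap for 9137 genes (52.8%). The median log2 fold change over all tested genes was 0.0027 and the 5th to 95th percentiles were -1.01 to 1.06. The balance of directions depended on the scaling, since with library totals in place of TMM 5265 genes were called higher and 2538 lower, and the median moved to 0.162. For lists whose main direction changed in count by over 1.5 times with library totals, that count is given beside the first. Every list count of 6 against 2 days has the same background, 19.8% higher and 23.0% lower over all genes. Some lists share members, so their counts are not separate from each other. PMAIP1 is among both the p53 targets and the apoptosis regulators, and ATF3 is in both the ATF4 and the immediate early lists.

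**Figure D1:**
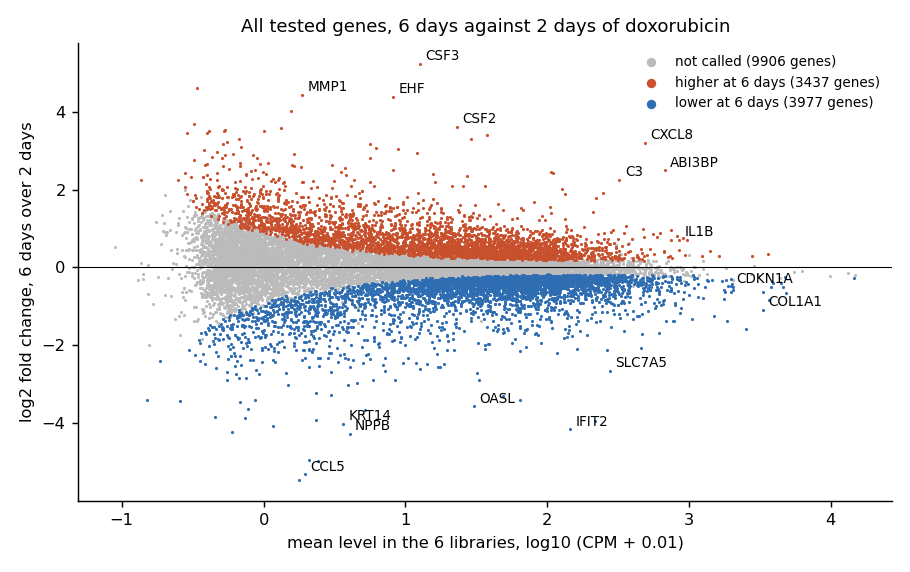
Each point is 1 of the 17320 tested genes, with its mean level over the 6 libraries of 2 and 6 days on the horizontal axis (log10 of CPM + 0.01) and its log2 fold change on the vertical axis. Colours give the calls at an adjusted p under 0.05, 3437 higher and 3977 lower, and the named genes include CSF3 at 5.24 and IFIT2 at -4.16.

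The 10 largest rises among genes with at least 10 CPM in the higher group were led by secreted factors of inflammation. CSF3, the granulocyte colony-stimulating factor, stood at 0.706, 0.479 and 0.721 CPM at 2 days and 24.2, 19.3 and 30.1 CPM at 6 days (log2 fold change 5.24 ± 0.24, adjusted p = 3.1e-14). EHF, an epithelial ETS transcription factor, had 0.706, 0.616 and 0.901 CPM at 2 days and 14.8, 16.1 and 16.1 CPM at 6 days (log2 fold change 4.38 ± 0.22, adjusted p = 7.1e-13), and 0 counts in all 3 controls. CSF2, the granulocyte-macrophage colony-stimulating factor, had 2.67, 3.29 and 4.50 CPM at 2 days and 46.4, 40.5 and 40.5 CPM at 6 days (log2 fold change 3.61 ± 0.24, adjusted p = 1.1e-07). Only genes whose libraries did not overlap were taken into this list, so the gap between the groups is part of the choice. RFX8, a member of the RFX family of DNA-binding proteins, went from 7.11, 8.15 and 4.26 to 67.9, 64.1 and 74.2 CPM (3.41 ± 0.15), and IL24, a cytokine of the IL-10 family, from 5.49, 6.37 and 4.20 to 45.5, 47.5 and 65.3 CPM (3.31 ± 0.22). CXCL8, the neutrophil attractant also called interleukin 8, went from 92.8, 101 and 93.1 to 790.4, 916 and 939 CPM (log2 fold change 3.20 ± 0.09, adjusted p = 2.9e-18). The others were CXCL6 (3.18), CXCL5 (3.05), the lysosomal protease gene CTSS (2.51) and ABI3BP (2.49), which encodes a matrix protein.

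The 10 largest falls, chosen in the same way among genes with at least 10 CPM in the higher group, were led by antiviral genes that respond to interferon. IFIT2 stood at 309, 239.5 and 269.6 CPM at 2 days and 20.8, 14.2 and 11.3 CPM at 6 days (log2 fold change -4.16 ± 0.18, adjusted p = 1.4e-10), and IFIT3 at 470.1, 362 and 399.9 CPM at 2 days and 34, 23 and 22.7 CPM at 6 days (log2 fold change -3.96 ± 0.16, adjusted p = 8e-12). OASL, a relative of the oligoadenylate synthetases, had 64.7, 50.7 and 53.6 CPM at 2 days and 4.69, 4.58 and 4.95 CPM at 6 days (log2 fold change -3.57 ± 0.15, adjusted p = 5.2e-15). OLR1, a scavenger receptor for oxidised lipoprotein, went from 119.8, 117 and 117 to 10.8, 11 and 11.6 CPM (-3.40 ± 0.10). EDN1, the precursor of the vasoconstrictor endothelin 1, went from 64.4, 43.4 and 57.8 to 9.08, 8.88 and 7.36 CPM (-2.72 ± 0.14). The rest were ISG15 (-3.31), IFIT1 (-2.90), the sarcomere-associated gene SYNPO2L (-2.90), the chemokine scavenger ACKR3 (-2.89) and the keratin gene KRT7 (-2.67).

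**Figure D2:**
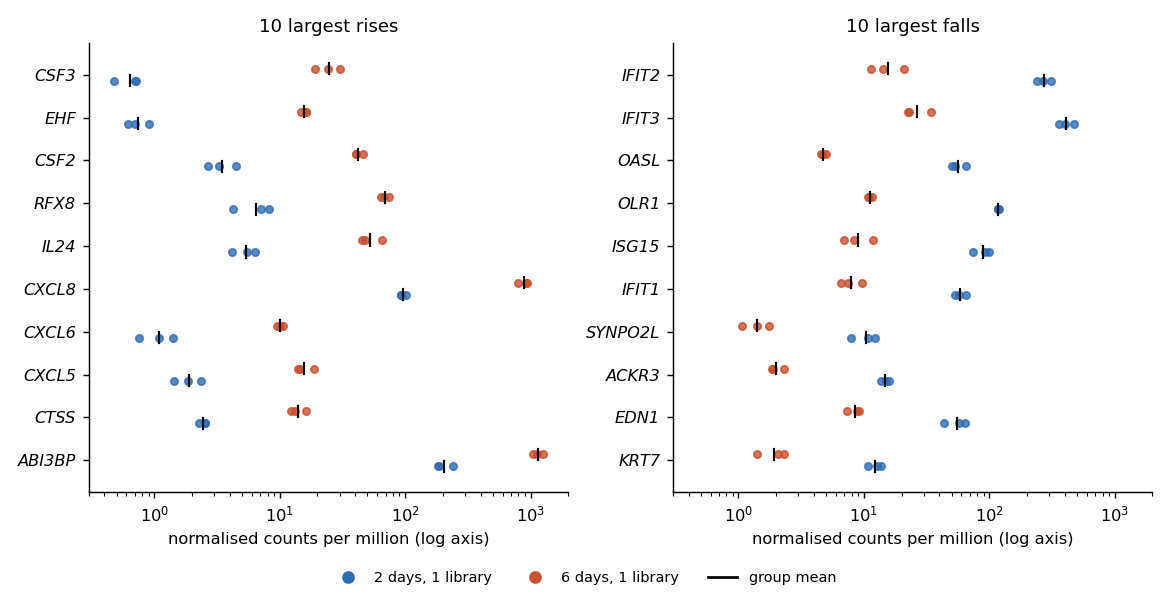
Each point is the level of 1 library in normalised CPM on a log axis, blue for 2 days and red for 6 days, and the bar is the mean of 3 libraries. The 20 genes were chosen for groups that do not overlap, and they run from CSF3 with 0.706, 0.479 and 0.721 CPM at 2 days and 24.2, 19.3 and 30.1 CPM at 6 days to IFIT2 with 309, 239.5 and 269.6 CPM and 20.8, 14.2 and 11.3 CPM.

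Interferon-stimulated genes encode proteins that bind viral RNA, block translation or tag proteins. Of 43 tested genes of this group, 34 were lower after 6 days and 1 was higher, with a median log2 fold change of -0.89, against 23.0% lower, 19.8% higher and a median of 0.0027 over all genes. ISG15, a ubiquitin-like modifier, had 92.6, 100.01 and 73.6 CPM at 2 days and 11.8, 6.92 and 8.29 CPM at 6 days (log2 fold change -3.31 ± 0.19, adjusted p = 5.1e-10). MX1, a GTPase that blocks viral particles, had 11.2, 8.42 and 10.9 CPM at 2 days and 3.11, 2.34 and 2.45 CPM at 6 days (log2 fold change -1.96 ± 0.20, adjusted p = 3.3e-08). GBP1, a guanylate-binding protein, had 111, 109 and 106 CPM at 2 days and 38.4, 37.2 and 33.4 CPM at 6 days (log2 fold change -1.58 ± 0.09, adjusted p = 5.1e-13). The groups did not overlap for these 3 genes, as held in this direction for 26.9% of all tested genes. The sensors of viral RNA IFIH1 (-1.09) and RIGI (-1.001) were lower, as were the RNA-activated synthetase genes OAS1 (-1.53) and OAS2 (-1.54). The member called higher was BST2, a membrane tether of viral particles, at low levels of 0.857, 0.548 and 0.360 CPM at 2 days and 1.52, 1.31 and 1.11 CPM at 6 days (log2 fold change 1.11 ± 0.39, adjusted p = 0.024), a call that was lost without replicate 2 or 3 of 2 days and without replicate 1 or 2 of 6 days. IFI27, RSAD2, CMPK2 and LAMP3 had too few counts to test, with 10, 18, 2 and 9 counts at 6 days and 9, 32, 9 and 21 at 2 days.

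The same genes set beside the controls were furthest from them at the shorter exposure. At 2 days 33 of the 43 were called higher than control and 0 lower (23.8% and 23.4% over all genes, 47.2% in both directions), with a median log2 fold change of 1.05. After 6 days 16 were called higher than control and 5 lower (22.0% and 21.7% over all genes, 43.7% in both directions), with a median of 0.25. These 2 comparisons share the 3 control libraries. IFIT2 had 13.7, 14 and 17.4 CPM in the controls, and its log2 fold change from control was 4.18 ± 0.18 at 2 days and 0.02 ± 0.19 after 6 days. OASL had 1.14, 1.77 and 2.11 CPM in the controls and remained above them after 6 days (1.52 ± 0.21), while GBP1, at 61.3, 52.1 and 59.3 CPM in the controls, was below them after 6 days (-0.67 ± 0.09). In the 4-day libraries IFIT2 had 30.7, 24.7 and 29.3 CPM and ISG15 8.82, 8.82 and 12.7 CPM, nearer to the levels of 6 days than to those of 2 days.

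IFIT2, IFIT3, IFIT1 and IFIT5, the tested IFIT genes of a row on chromosome 10, lie between positions 89283694 and 89421001 (GRCh38, GENCODE release 29). Untested genes of that stretch are not described. IFIT5, the last gene of the row, had 25.3, 21.2 and 30.1 CPM at 2 days and 23.7, 19.8 and 20.1 CPM at 6 days and was not called (log2 fold change -0.27 ± 0.12, adjusted p = 0.062), though it was called lower without replicate 2 of 2 days or without replicate 1 of 6 days. LIPA, a lysosomal lipase gene read from the opposite strand, overlaps IFIT2, IFIT3 and IFIT1 and was lower after 6 days (log2 fold change -0.44 ± 0.08, adjusted p = 0.00012). How the counting treated strand is not known here, so reads of LIPA and of the IFIT genes cannot be told apart where they overlap. The same holds for OLR1, named among the largest falls, and TMEM52B, which overlaps it on the opposite strand. A non-coding gene without a symbol, on the strand of IFIT2, overlaps IFIT2 too and was lower (log2 fold change -2.96). LIPA had 94.2, 95.8 and 105 CPM at 2 days and 78.4, 71.6 and 67.4 CPM at 6 days, without overlap of the groups.

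The interferon response element, the site bound by IRF proteins and their complexes, was searched in the 250 bases before each gene's RefSeq start on both strands as GAAA, any 2 bases and GAAA again. It was present in 15 of 26 promoters of the interferon-stimulated genes that fell (57.7%) and in 1 of 6 of those not called (16.7%), against 2.44% of the 11727 tested genes with a promoter in the RefSeq table (GRCh38.p14). Among genes at least 2-fold lower after 6 days 5.41% held it, and among genes at least 2-fold higher 2.58%. The lower set includes interferon-stimulated genes already counted, IFIT3, IFIT1 and ISG15 among them, so its share is not separate from theirs. Stretches before 4 genes are shown because 3 of them fell and BST2, with the same letters, did not; capitals mark the match, and the letters of UTRs and exons are left out. They are IFIT3 at chr10:89327747-89327893, IFIT1 at chr10:89392373-89392545 and ISG15 at chr1:1013247-1013422, all on the plus strand, and BST2 at chr19:17405649-17405880 on the minus strand.
IFIT3: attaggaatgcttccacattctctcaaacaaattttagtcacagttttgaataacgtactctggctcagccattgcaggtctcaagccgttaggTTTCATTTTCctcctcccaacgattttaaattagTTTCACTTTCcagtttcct
IFIT1: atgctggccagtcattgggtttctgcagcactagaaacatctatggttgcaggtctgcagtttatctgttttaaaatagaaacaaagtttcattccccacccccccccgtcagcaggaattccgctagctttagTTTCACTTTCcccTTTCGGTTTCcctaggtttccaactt
ISG15: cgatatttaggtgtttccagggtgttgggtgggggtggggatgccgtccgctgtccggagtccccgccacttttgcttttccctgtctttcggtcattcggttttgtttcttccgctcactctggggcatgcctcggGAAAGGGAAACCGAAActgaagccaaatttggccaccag
BST2: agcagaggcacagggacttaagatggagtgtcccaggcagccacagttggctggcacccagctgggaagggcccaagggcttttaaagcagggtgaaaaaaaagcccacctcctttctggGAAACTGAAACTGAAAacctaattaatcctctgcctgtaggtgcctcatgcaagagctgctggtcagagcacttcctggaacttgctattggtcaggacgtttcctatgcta
In ISG15 and in BST2 the capitals cover 2 overlapping matches, and in IFIT3 and IFIT1 there are 2 separate ones. A match of letters is a description of the window and does not show that a factor binds there.

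NF-kB is a family of dimers, RELA and NFKB1 among them, that is held back by NFKBIA and drives genes of inflammation. The list of its targets and of inflammatory cytokines moved in both directions: of 33 tested members 15 were higher after 6 days and 12 lower (19.8% and 23.0% over all genes), with a median of 0.23. The members that were higher encode secreted chemokines, colony-stimulating factors and cytokines, together with the TNF family ligand TNFSF15 (1.55) and an adhesion receptor. IL6, the fever cytokine interleukin 6, had 176, 147 and 162 CPM at 2 days and 270.4, 293 and 316 CPM at 6 days (log2 fold change 0.86 ± 0.09, adjusted p = 8.3e-08). IL1B, interleukin 1 beta, had 653, 626 and 659 CPM at 2 days and 981, 1047 and 1151 CPM at 6 days (log2 fold change 0.71 ± 0.09, adjusted p = 8.9e-07). CXCL1, a neutrophil attractant, had 9.88, 10.1 and 6.61 CPM at 2 days and 46.3, 42.9 and 46.5 CPM at 6 days (log2 fold change 2.35 ± 0.12, adjusted p = 3.2e-13). All 3 were above the libraries of 2 days in every library of 6 days, as were 25.9% of all tested genes. CCL2, an attractant of monocytes, was also higher (log2 fold change 1.000 ± 0.10, adjusted p = 2.8e-08), as was IL11, a cytokine of the IL-6 family (0.54).

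The members that were lower included subunits and adaptors of the pathway together with some secreted proteins. CCL5, an attractant of T cells, had 3.48, 5.34 and 2.64 CPM at 2 days and 0.0609, 0.0545 and 0.139 CPM at 6 days (log2 fold change -5.31 ± 0.58, adjusted p = 7.8e-08). The levels of CCL5 at 6 days rest on very few counts, so the size of its fold change is uncertain. TRAF1, an adaptor of TNF receptors, had 33, 25.5 and 31.5 CPM at 2 days and 4.57, 4.58 and 5.93 CPM at 6 days (log2 fold change -2.57 ± 0.15, adjusted p = 1.4e-12). BIRC3, an inhibitor of cell death at the same receptors, had 106, 104 and 109.8 CPM at 2 days and 34.2, 39.1 and 32.4 CPM at 6 days (log2 fold change -1.60 ± 0.10, adjusted p = 1e-11). IL1A, interleukin 1 alpha, had 34.2, 32.6 and 35.1 CPM at 2 days and 8.65, 12.3 and 7.55 CPM at 6 days (log2 fold change -1.84 ± 0.16, adjusted p = 2e-09), opposite in direction to IL1B. The subunit genes NFKB1 (-0.81), NFKB2 (-0.67) and RELB (-0.62) were lower, and the adhesion receptor gene VCAM1 fell from 3.02, 3.29 and 2.94 to 0.609, 0.654 and 0.834 CPM (-2.11). The inhibitor gene NFKBIA was not called (log2 fold change -0.18 ± 0.09, adjusted p = 0.13). Set against the controls, 26 of the 33 were called higher at 2 days (23.8% over all genes) and 27 after 6 days (22.0% over all genes).

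The genes of 6 CXC chemokines that rose lie on chromosome 4 between positions 73740506 and 74099293 (GRCh38). The span was drawn from the first to the last of these 6 genes, so their shared direction is part of the choice. Untested genes within it are not described. All 6 tested genes in that span, CXCL8, CXCL6, CXCL1, CXCL5, CXCL3 and CXCL2, were higher after 6 days, with log2 fold changes of 3.20, 3.18, 2.35, 3.05, 2.37 and 1.34 in their order along the chromosome. CXCL6 had 1.41, 0.753 and 1.08 CPM at 2 days and 9.57, 10.6 and 10.1 CPM at 6 days, and CXCL5 had 1.86, 1.44 and 2.34 CPM at 2 days and 14, 18.9 and 14.5 CPM at 6 days. CXCL3 had 1.06, 1.78 and 0.901 CPM at 2 days and 7.43, 6.32 and 5.42 CPM at 6 days, and CXCL2 had 2.52, 2.60 and 2.16 CPM at 2 days and 5.91, 5.99 and 6.48 CPM at 6 days. The coding sequences of CXCL1, CXCL2 and CXCL3 are alike, so reads could be split between them. CXCL2 had the smallest rise of the 6. At 2 days it was below control (-0.84 ± 0.19) and after 6 days above (0.50 ± 0.17).

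The kB element, the site of NF-kB dimers, was searched as GGNNTTTCC on both strands in the same windows. It was present in 8 of 12 promoters of the list's members that rose, in 6 of 9 of those that fell and in 4 of 6 of those not called, 66.7% in each, against 5.86% of all tested genes with a promoter. The letters therefore did not separate the members by direction. Stretches before 3 genes that rose (CXCL8 at chr4:73740319-73740505, CXCL1 at chr4:73869143-73869392 and IL6 at chr7:22726950-22727146) and before 2 that fell (VCAM1 at chr1:100719492-100719741 and BIRC3 at chr11:102317234-102317449) are shown to set both kinds side by side, all on the plus strand of GRCh38.p14 from RefSeq, with matches in capitals.
CXCL8: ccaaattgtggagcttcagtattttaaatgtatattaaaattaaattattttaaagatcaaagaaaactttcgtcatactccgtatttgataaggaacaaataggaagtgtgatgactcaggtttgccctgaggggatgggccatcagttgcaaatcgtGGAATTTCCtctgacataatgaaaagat
CXCL1: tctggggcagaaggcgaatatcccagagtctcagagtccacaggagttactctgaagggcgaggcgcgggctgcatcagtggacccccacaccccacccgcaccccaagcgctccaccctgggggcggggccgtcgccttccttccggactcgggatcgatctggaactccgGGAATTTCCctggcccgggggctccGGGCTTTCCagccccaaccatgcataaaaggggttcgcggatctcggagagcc
IL6: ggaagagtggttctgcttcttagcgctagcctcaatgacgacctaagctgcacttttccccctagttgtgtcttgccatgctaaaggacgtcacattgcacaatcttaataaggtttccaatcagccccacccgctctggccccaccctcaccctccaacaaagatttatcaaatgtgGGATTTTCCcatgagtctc
VCAM1: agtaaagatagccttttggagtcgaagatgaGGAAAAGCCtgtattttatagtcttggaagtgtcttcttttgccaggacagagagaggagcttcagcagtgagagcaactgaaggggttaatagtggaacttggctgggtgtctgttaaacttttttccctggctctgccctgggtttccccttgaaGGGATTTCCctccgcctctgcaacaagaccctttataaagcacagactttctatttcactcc
BIRC3: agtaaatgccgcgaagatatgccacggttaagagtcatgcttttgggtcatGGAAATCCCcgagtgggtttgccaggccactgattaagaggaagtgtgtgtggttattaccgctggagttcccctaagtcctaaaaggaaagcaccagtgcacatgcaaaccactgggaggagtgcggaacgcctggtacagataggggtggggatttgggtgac
CXCL8, IL6 and BIRC3 hold 1 match in the stretch shown, and CXCL1 and VCAM1 hold 2.

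Complement proteins mark and lyse cells, and the plasminogen activators dissolve clots and matrix. Of 23 tested genes of complement and coagulation 11 were higher after 6 days and 6 lower (19.8% and 23.0% over all genes), with a median of 0.20. C3, the central protein of complement, had 114, 118 and 104 CPM at 2 days and 506, 543 and 551 CPM at 6 days (log2 fold change 2.25 ± 0.09, adjusted p = 5.2e-15), and its controls had 2.27, 3.09 and 3.43 CPM. C5, the start of the lytic complex, rose from 4.89, 4.18 and 6.25 to 19.7, 19.9 and 18.2 CPM (1.91 ± 0.14). PLAU, the urokinase plasminogen activator, had 14.3, 10.9 and 16 CPM at 2 days and 58.2, 54.9 and 63.9 CPM at 6 days (log2 fold change 2.10 ± 0.14, adjusted p = 7e-11), and PLAT, the tissue-type activator, was also higher (0.78). CD55, which protects host cells from complement, went the other way with 159, 138 and 135 CPM at 2 days and 35.3, 39.3 and 37.9 CPM at 6 days (log2 fold change -1.94 ± 0.08, adjusted p = 1e-14). With library totals alone 3 members were lower in place of 6.

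**Figure D3:**
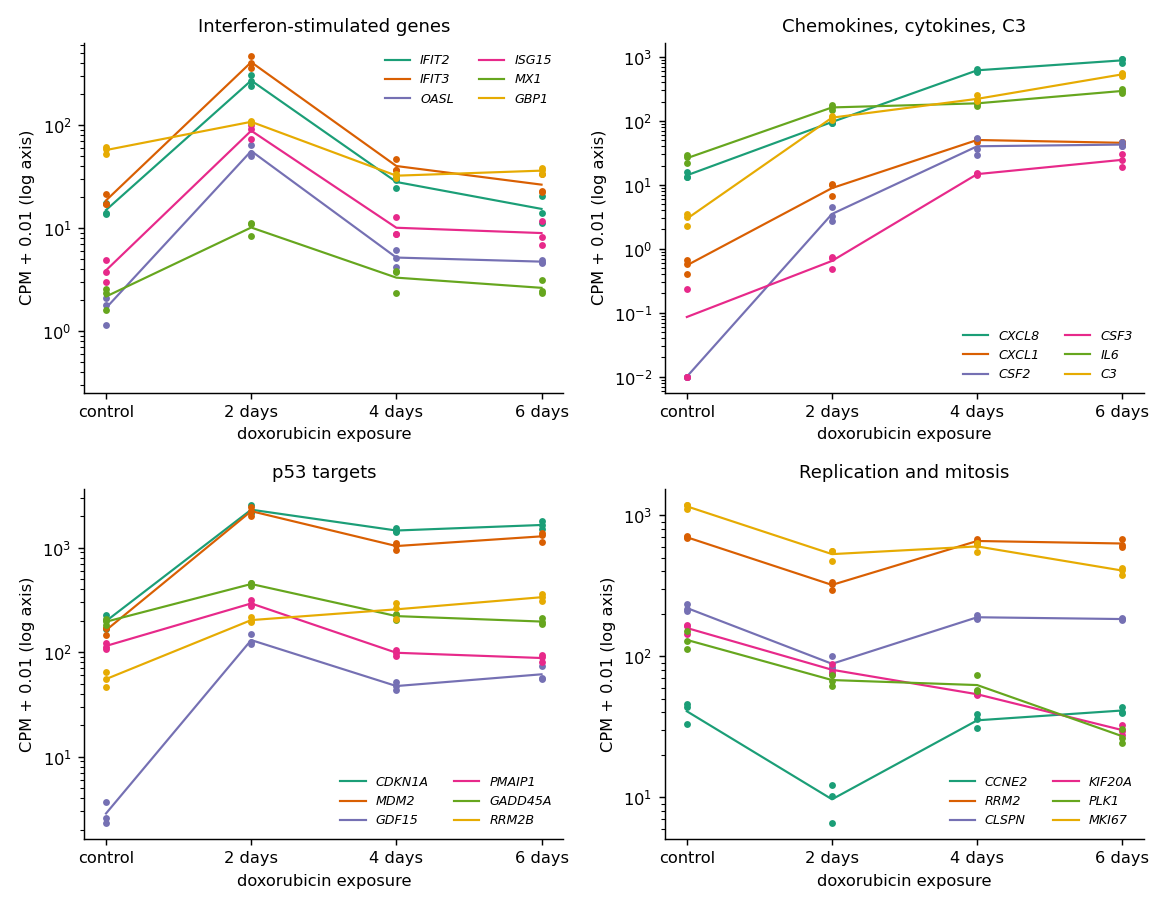
Each panel plots 6 genes, with points for single libraries, lines through the means of 3 libraries and levels as CPM + 0.01 on a log axis against exposure. The antiviral genes are highest at 2 days (IFIT2 at 309, 239.5 and 269.6 CPM), CXCL8 climbs to 790.4, 916 and 939 CPM at 6 days, CDKN1A stays above control throughout, and CCNE2 dips at 2 days.

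p53 targets were mostly above control after 6 days but lower than after 2 days. Of 36 tested targets 25 were lower after 6 days and 2 higher (23.0% and 19.8% over all genes), with a median of -0.62. CDKN1A, the inhibitor p21 that stops cyclin-dependent kinases, had 2199.9, 2561 and 2139.7 CPM at 2 days and 1491, 1656 and 1781 CPM at 6 days (log2 fold change -0.49 ± 0.10, adjusted p = 0.00028). MDM2, the ubiquitin ligase that degrades p53, had 2225, 2002 and 2453 CPM at 2 days and 1381, 1314 and 1141 CPM at 6 days (log2 fold change -0.80 ± 0.09, adjusted p = 1.6e-07). GDF15, a secreted stress hormone, had 124, 148 and 119 CPM at 2 days and 55.9, 54.8 and 73 CPM at 6 days (log2 fold change -1.08 ± 0.11, adjusted p = 7.8e-08). The 3 controls stood at 201, 227 and 165 CPM for CDKN1A, 171, 145 and 169 CPM for MDM2 and 2.55, 3.68 and 2.31 CPM for GDF15, far under both exposures. PMAIP1, the death-promoting protein NOXA, had 314, 273 and 287 CPM at 2 days and 94.1, 88.7 and 80.2 CPM at 6 days (log2 fold change -1.74 ± 0.09, adjusted p = 9.9e-14), and GADD45A, a damage-induced growth arrest gene, had 457, 458 and 427 CPM at 2 days and 212, 183 and 192 CPM at 6 days (log2 fold change -1.19 ± 0.08, adjusted p = 1.7e-11). After 6 days PMAIP1 was below control (-0.38 ± 0.08) and GADD45A was not called against it (0.00 ± 0.08). PLK2, a kinase of the same response, fell from 488, 469.7 and 498 to 237, 235 and 206 CPM (-1.10).

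A pair of p53 targets rose. RRM2B, the ribonucleotide reductase subunit that feeds repair, had 196, 193 and 217 CPM at 2 days and 336, 361 and 307 CPM at 6 days (log2 fold change 0.73 ± 0.12, adjusted p = 5.3e-05), and SPATA18, a regulator of mitochondrial quality, had 2.32, 2.81 and 4.02 CPM at 2 days and 6.21, 7.52 and 5.28 CPM at 6 days (log2 fold change 1.06 ± 0.21, adjusted p = 0.0003). Both lay above the libraries of 2 days in all 3 libraries of 6 days, as did 25.9% of all tested genes. BAX, the pore former of mitochondrial death, had 125, 122 and 114 CPM at 2 days and 115, 107 and 127 CPM at 6 days and was not called (log2 fold change -0.05 ± 0.09, adjusted p = 0.66). Set against the controls, 35 of the 36 were called higher and 1 lower at 2 days, with a median of 2.09 (23.8% and 23.4% over all genes), and 31 higher and 3 lower after 6 days, with a median of 1.83 (22.0% and 21.7% over all genes). This list was chosen with earlier results of these libraries known.

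Regulators of apoptosis decide whether damaged cells die through mitochondria or death receptors. Of 37 tested genes 19 were lower after 6 days and 3 higher (23.0% and 19.8% over all genes), with a median of -0.28. With library totals alone 11 were lower and 6 higher. BAK1, a pore former like BAX, had 56, 56.2 and 60.7 CPM at 2 days and 23.7, 24.9 and 25 CPM at 6 days (log2 fold change -1.23 ± 0.09, adjusted p = 1.5e-10). Among death receptors FAS (-0.99) and TNFRSF10A (-0.78) were lower, as was BBC3, which encodes PUMA (-0.88). BCL2, the founding inhibitor of this death, had 2.17, 1.99 and 2.94 CPM at 2 days and 5.42, 5.61 and 6.21 CPM at 6 days (log2 fold change 1.28 ± 0.18, adjusted p = 4.6e-06), and its controls had 9.76, 8.27 and 9.38 CPM. XIAP, an inhibitor of caspases, was slightly higher (0.41).

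Genes of DNA replication were mostly higher after 6 days. Of 49 tested replication and S-phase genes 29 were higher after 6 days and 3 lower (19.8% and 23.0% over all genes), with a median of 0.29, and with library totals alone 38 were higher. CCNE2, a cyclin that starts S phase, had 10.3, 6.57 and 12.1 CPM at 2 days and 44, 39.7 and 40.01 CPM at 6 days (log2 fold change 2.08 ± 0.16, adjusted p = 2.5e-09), and CCNE1, the other E-type cyclin, rose from 1.46, 0.753 and 1.68 to 4.57, 3.65 and 5.70 CPM (1.81 ± 0.27). RRM2, the ribonucleotide reductase subunit of S phase, had 337, 297 and 328 CPM at 2 days and 679, 612 and 600.2 CPM at 6 days (log2 fold change 0.98 ± 0.08, adjusted p = 2.3e-10). CLSPN, which carries the checkpoint signal at forks, had 99.99, 81.5 and 83.8 CPM at 2 days and 181, 186 and 184 CPM at 6 days (log2 fold change 1.05 ± 0.08, adjusted p = 2.9e-10). In this direction 25.9% of all tested genes were apart, and the groups did not overlap for any of these genes. Their levels at 2 days were below control, with log2 fold changes of -2.06 ± 0.16 for CCNE2, -1.12 ± 0.08 for RRM2 and -1.31 ± 0.08 for CLSPN, and those after 6 days were 0.02 ± 0.14, -0.15 ± 0.07 and -0.26 ± 0.08. PCNA, the sliding clamp of replication and also a p53 target, had 549, 484 and 476 CPM at 2 days and 499.7, 488 and 437 CPM at 6 days and was not called. Thymidine kinase, TK1, was lower (-0.52).

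Of 50 tested genes of mitosis and G2/M, 23 were lower after 6 days and 6 higher (23.0% and 19.8% over all genes). Their median was -0.19. That balance depended on the scaling, since with library totals alone 13 were lower and 11 higher. KIF20A, a motor of the dividing midzone, had 74.3, 88.4 and 77.8 CPM at 2 days and 27.7, 29.7 and 32.4 CPM at 6 days (log2 fold change -1.42 ± 0.09, adjusted p = 7.5e-12). PLK1, the master kinase of mitosis, had 62, 74.2 and 67.2 CPM at 2 days and 24.3, 26.3 and 30.7 CPM at 6 days (log2 fold change -1.32 ± 0.12, adjusted p = 7.7e-09). CDC20, the activator of the anaphase ligase, had 84, 93.3 and 84.4 CPM at 2 days and 39.1, 39.9 and 44.1 CPM at 6 days (log2 fold change -1.08 ± 0.10, adjusted p = 3.8e-09). TPX2, a spindle assembly factor, fell from 372, 389 and 376 to 198, 205 and 195 CPM (-0.93), and the proliferation marker MKI67 from 474, 559.5 and 556 to 379.7, 412 and 424 CPM (-0.39). Those 5 genes were already under control at 2 days, and the libraries of 6 days lay lower still. CDK1, the kinase that drives entry into mitosis, was higher (log2 fold change 0.41 ± 0.08, adjusted p = 0.00017), as was the spindle motor KIF15 (0.83). TOP2A, the doxorubicin target of dividing cells, had 411, 424 and 439 CPM at 2 days and 472, 497 and 462 CPM at 6 days and missed the threshold (log2 fold change 0.17 ± 0.07, adjusted p = 0.064), though it was called higher with library totals alone, in DESeq2 and in the fit of the compared groups alone.

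Repair of breaks by homologous recombination and the Fanconi pathway relies on genes that are mostly expressed in S phase. Of 34 tested genes 24 were higher after 6 days and 0 lower (19.8% and 23.0% over all genes), with a median of 0.45. FANCA, of the Fanconi core complex, had 42.7, 40.9 and 41.3 CPM at 2 days and 79.7, 72.4 and 83.5 CPM at 6 days (log2 fold change 0.91 ± 0.08, adjusted p = 2.5e-09). BLM, the helicase lost in Bloom syndrome, had 38.8, 35.6 and 39.5 CPM at 2 days and 72.4, 70.1 and 70.4 CPM at 6 days (log2 fold change 0.90 ± 0.09, adjusted p = 2.3e-08). FANCL, the ubiquitin ligase of the core complex, had 21.1, 16 and 23.2 CPM at 2 days and 41.4, 42.2 and 39.4 CPM at 6 days (log2 fold change 1.02 ± 0.11, adjusted p = 4.6e-08). No library of 2 days reached those of 6 days, as held for 25.9% of all tested genes. BRCA1, which licenses recombination (0.56), and ATM, the kinase that senses breaks (0.82), were higher. Set against control, 24 of the 34 were called lower at 2 days (23.4% over all genes) and 11 after 6 days (21.7% over all genes).

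Replication-dependent histone genes supply the proteins that package newly copied DNA, and their transcripts mostly lack poly(A) tails. Of the 26 found among the counted genes 14 were tested, with 9 lower after 6 days and 0 higher and a median of -0.76. H1-2, a linker histone, had 12, 12.3 and 11.1 CPM at 2 days and 2.68, 4.20 and 3.89 CPM at 6 days (log2 fold change -1.71 ± 0.19, adjusted p = 8.8e-08), and H2AC6, a core histone, had 11.8, 12.3 and 11.6 CPM at 2 days and 5.42, 3.98 and 3.89 CPM at 6 days (log2 fold change -1.43 ± 0.18, adjusted p = 7.6e-07). H2BC4 had 2.42, 1.92 and 1.68 CPM at 2 days and 0.670, 0.381 and 0.556 CPM at 6 days (-1.91). Copies of these genes are nearly identical, so their counts are uncertain.

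**Figure D4:**
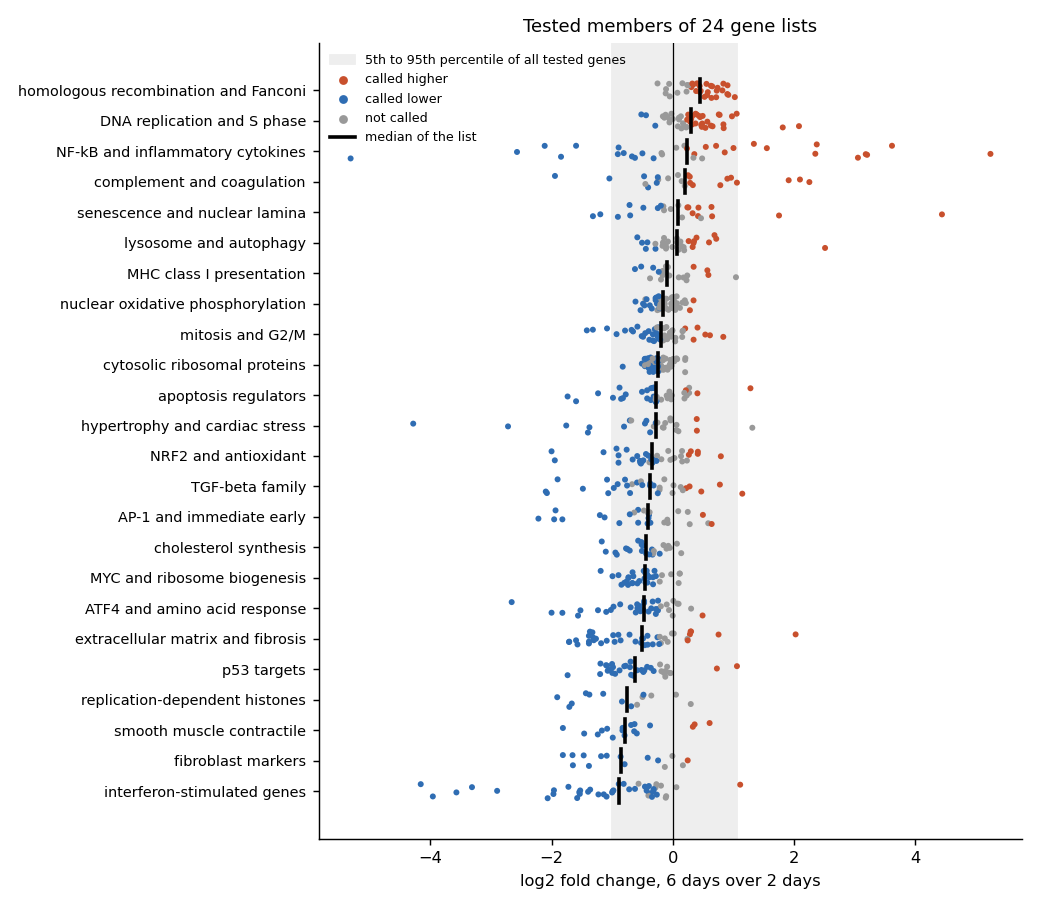
Each point is a tested member of 1 of 24 gene lists, placed by its log2 fold change and coloured by its call, with a bar at the median of the list, lists in order of their medians, and a grey band for the 5th to 95th percentiles of all tested genes (-1.01 to 1.06). Medians run from -0.89 for interferon-stimulated genes to 0.45 for homologous recombination and Fanconi genes.

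ATF4 is the transcription factor of amino acid shortage and the integrated stress response. Of 36 tested genes of its program 27 were lower after 6 days and 1 higher, with a median of -0.47. SLC7A5, the importer of large neutral amino acids, had 467, 457 and 499 CPM at 2 days and 78.1, 68.7 and 78.8 CPM at 6 days (log2 fold change -2.66 ± 0.09, adjusted p = 5.8e-17). Its partner chain SLC3A2 had 166, 143 and 176 CPM at 2 days and 56.8, 52.2 and 55.3 CPM at 6 days (log2 fold change -1.56 ± 0.09, adjusted p = 9e-13). SLC7A11, which imports cystine for glutathione, had 49.1, 52.2 and 72.1 CPM at 2 days and 15.1, 15.6 and 12.7 CPM at 6 days (log2 fold change -2.00 ± 0.21, adjusted p = 8.6e-06), and 218, 142 and 226 CPM in the controls. ATF3, a stress-induced repressor, had 206, 204 and 204 CPM at 2 days and 57.3, 59.9 and 56.5 CPM at 6 days (log2 fold change -1.82 ± 0.08, adjusted p = 1.3e-14), and ATF4 itself was lower (-0.33), a call lost with library totals alone. ATF3 was above control at 2 days (1.11 ± 0.08) and below it after 6 days (-0.71 ± 0.08), and SLC7A5 was not called against control at 2 days (0.10 ± 0.08) and was lower after 6 days (-2.55 ± 0.09). VLDLR, a lipoprotein receptor, was the member called higher (0.49).

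Sterol and fatty acid enzymes are driven by the SREBP factors. Of 25 tested cholesterol genes 17 were lower after 6 days and 0 higher, with a median of -0.44. ACAT2, which makes acetoacetyl-CoA, had 207, 175 and 182 CPM at 2 days and 90.5, 84.6 and 75.5 CPM at 6 days (log2 fold change -1.17 ± 0.09, adjusted p = 2.3e-10). INSIG1, which holds SREBP in the endoplasmic reticulum, had 151, 182 and 148 CPM at 2 days and 135, 137 and 141 CPM at 6 days, and its call (log2 fold change -0.22 ± 0.09, adjusted p = 0.047) was lost under library totals, both other filters, the replicate block and DESeq2, and in the fits without replicate 2 of 2 days or any 1 replicate of 6 days. Set against control, 17 cholesterol genes were called lower at 2 days (23.4% over all genes) and 20 after 6 days (21.7% over all genes). Of 18 fatty acid genes 8 were lower and 3 higher (23.0% and 19.8% over all genes). SCD, the desaturase that makes oleate, had 974, 1141 and 1043 CPM at 2 days and 505, 558 and 547 CPM at 6 days (log2 fold change -0.97 ± 0.09, adjusted p = 4e-09).

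NRF2 controls the antioxidant genes. Of 36 tested targets 20 were lower after 6 days and 5 higher, with a median of -0.35, and with library totals alone 13 were lower and 9 higher. TKT, an enzyme of the pentose phosphate pathway, had 354, 404 and 325 CPM at 2 days and 149.9, 165 and 175 CPM at 6 days (log2 fold change -1.14 ± 0.09, adjusted p = 2.8e-10). NQO1, a quinone reductase, had 94, 78 and 84.6 CPM at 2 days and 45.1, 46.7 and 43.1 CPM at 6 days (log2 fold change -0.93 ± 0.08, adjusted p = 2.8e-09), and GCLM, a subunit of the enzyme that starts glutathione synthesis, was lower as well (-0.90). HMOX1, which breaks down heme, had 15, 16.4 and 15.7 CPM at 2 days and 10.5, 10.7 and 11.4 CPM at 6 days (log2 fold change -0.53 ± 0.11, adjusted p = 0.0006). Of 20 tested genes of iron handling and ferroptosis 5 were higher and 8 lower (19.8% and 23.0% over all genes). The iron exporter SLC40A1 rose from 2.12, 2.60 and 3.12 to 6.82, 8.67 and 8.29 CPM (1.61 ± 0.19) and the importer SLC11A2 from 38, 35.9 and 39.4 to 76.2, 73.8 and 74.4 CPM (0.99 ± 0.10). GPX4, which protects membrane lipids, was lower (-0.44).

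MYC and most genes that build ribosomes were lower after 6 days. Of 34 tested genes 28 were lower and 0 higher, with a median of -0.46. MYC had 97.3, 101 and 98.3 CPM at 2 days and 39.3, 51.9 and 57.3 CPM at 6 days (log2 fold change -0.99 ± 0.11, adjusted p = 6.8e-08). DDX21, a nucleolar helicase, had 676, 609 and 672 CPM at 2 days and 285, 289 and 284 CPM at 6 days (log2 fold change -1.19 ± 0.07, adjusted p = 3.8e-12), and NOLC1, a nucleolar scaffold, had 272, 257 and 278 CPM at 2 days and 136, 153 and 144 CPM at 6 days (log2 fold change -0.90 ± 0.07, adjusted p = 5.8e-10). Genes for the ribosomal proteins themselves had a median of -0.24, with 36 of 74 lower and 0 higher, but with library totals alone 5 were lower and 4 higher, and leaving out single libraries gave 15, 21, 19 and 22 lower without replicate 1 or 2 of 2 days and without replicate 1 or 2 of 6 days. Mitochondrial-encoded genes had 6 of 13 lower and 0 higher, 2 lower with library totals alone, and 2, 3 and 11 lower without replicates 1, 2 and 3 of 2 days and 2 and 3 without replicates 1 and 2 of 6 days. The share of counts from the mitochondrial genome was 7.62%, 7.74% and 5.51% at 2 days and 5.77%, 6.54% and 6.80% at 6 days.

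Of 23 tested genes of the unfolded protein response, chaperones of the endoplasmic reticulum among them, 12 were lower and 4 higher (23.0% and 19.8% over all genes), but with library totals alone 5 were lower and 5 higher. Of 18 cytosolic heat shock genes 11 were lower and 1 higher, and 7 and 1 with library totals alone. HSPA5, the main chaperone of the endoplasmic reticulum, had 1043, 871 and 951 CPM at 2 days and 596, 639 and 581 CPM at 6 days (log2 fold change -0.66 ± 0.08, adjusted p = 5.1e-07), and CRYAB, a small heat shock protein of muscle, had 10.5, 7.67 and 8.59 CPM at 2 days and 2.50, 1.42 and 1.85 CPM at 6 days (log2 fold change -2.23 ± 0.20, adjusted p = 4.3e-09). ERO1A, the oxidase that makes disulfide bonds, was higher (log2 fold change 0.56 ± 0.09, adjusted p = 1.4e-05). Of 34 genes of glycolysis and hypoxia 14 were lower and 4 higher (23.0% and 19.8% over all genes). LDHA, the lactate dehydrogenase, was lower (-0.78), and ENO2, an enolase, went from 115, 128 and 113 to 249.8, 237 and 247 CPM (1.05). Nuclear genes of oxidative phosphorylation were mostly not called. Of 54 tested 13 were lower, a share near the 23.0% over all genes, and 2 were higher (19.8% over all genes). With library totals alone 7 were lower and 8 higher, and 8 were lower without replicate 1 of 2 days or without replicate 2 of 6 days.

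Matrix genes were mostly lower. Of 42 tested genes 29 were lower after 6 days and 6 higher, with a median of -0.52. COL1A1, the main chain of type I collagen, had 4606, 4697 and 4284 CPM at 2 days and 2159, 1916 and 2306 CPM at 6 days (log2 fold change -1.09 ± 0.09, adjusted p = 3.2e-10). COL4A1, a chain of basement membrane collagen, had 705, 655 and 789 CPM at 2 days and 228, 214 and 213 CPM at 6 days (log2 fold change -1.71 ± 0.08, adjusted p = 9.7e-14). THBS1, a matrix glycoprotein that activates TGF-beta, had 3874, 3013 and 4437 CPM at 2 days and 1416, 1136 and 1257 CPM at 6 days (log2 fold change -1.57 ± 0.15, adjusted p = 5.3e-07). These 3 genes were above control at 2 days, by 0.81 ± 0.09, 1.51 ± 0.08 and 2.64 ± 0.15 on the log2 scale, and at -0.28 ± 0.08, -0.20 ± 0.08 and 1.07 ± 0.15 after 6 days. LAMA4, a laminin chain of vessel and muscle basement membranes, rose with 47.6, 50.1 and 52.8 CPM at 2 days and 198, 208 and 207 CPM at 6 days (log2 fold change 2.02 ± 0.09, adjusted p = 3.3e-14), as did COL6A2 (0.75). FN1, fibronectin, missed the threshold (log2 fold change -0.20 ± 0.08, adjusted p = 0.055), though DESeq2 and the fit of the compared groups alone called it lower. Of 15 fibroblast markers, some shared with the matrix list, 11 were lower and 1 higher, and their summed levels, given above, did not overlap between the groups. In bulk samples fewer cells of a type and less RNA per cell cannot be told apart, and the part of either in these counts was not tested.

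Among matrix proteases MMP1, the interstitial collagenase, had 0.202, 0.205 and 0.0601 CPM at 2 days and 3.72, 3.92 and 3.01 CPM at 6 days (log2 fold change 4.44 ± 0.46, adjusted p = 3.4e-08), and MMP14, a membrane-bound activator of other proteases, had 244, 228 and 231 CPM at 2 days and 391, 378 and 406 CPM at 6 days (log2 fold change 0.74 ± 0.07, adjusted p = 1.2e-08). MMP3, stromelysin, stayed low but was higher (1.75). Of 19 tested proteases and inhibitors 5 were higher and 6 lower (19.8% and 23.0% over all genes).

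TGF-beta signalling drives matrix and contractile genes. Of 31 tested genes of the family 17 were lower after 6 days and 5 higher, with a median of -0.38. TGFB2, a ligand, had 251, 265 and 268 CPM at 2 days and 59.4, 66 and 58.1 CPM at 6 days (log2 fold change -2.10 ± 0.11, adjusted p = 6e-13). CCN2, a connective tissue growth factor and a classical target, had 781, 659.6 and 781 CPM at 2 days and 175, 179 and 172 CPM at 6 days (log2 fold change -2.08 ± 0.09, adjusted p = 1.5e-14). INHBB, an activin subunit, fell from 10.2, 9.24 and 8.89 to 2.38, 2.51 and 2.69 CPM (-1.90), and TGFB3, another ligand at low level, was higher (1.15). The receptor TGFBR1 was lower (-0.71), whereas the receptor TGFBR2 was higher (0.47).

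All 17 tested genes of the smooth muscle contractile apparatus were called, 14 lower and 3 higher, with a median of -0.80. CALD1, which regulates actin and myosin, had 2171, 2049 and 2133 CPM at 2 days and 912, 936 and 846 CPM at 6 days (log2 fold change -1.24 ± 0.07, adjusted p = 2.5e-12), and TAGLN, an actin-binding protein, had 203, 171 and 199 CPM at 2 days and 89.6, 78.6 and 86.4 CPM at 6 days (log2 fold change -1.17 ± 0.09, adjusted p = 1.3e-10). ACTA2, the smooth muscle actin, went the other way with 88.2, 82.5 and 79.6 CPM at 2 days and 112, 103 and 106 CPM at 6 days (log2 fold change 0.36 ± 0.09, adjusted p = 0.0022). MYLK, the kinase of myosin light chain (0.33), and MYOCD, the coactivator of this gene program (0.61), were also higher. All 3 were above control at both exposures, ACTA2 by 3.05 ± 0.11 at 2 days and 3.41 ± 0.11 after 6 days.

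Cardiac hypertrophy is named in the series title. Of 25 tested genes of hypertrophy and cardiac stress 11 were lower and 2 higher, with a median of -0.28. NPPB, the B-type natriuretic peptide released by strained ventricle, had 9.78, 5.82 and 7.45 CPM at 2 days and 0.426, 0.381 and 0.370 CPM at 6 days (log2 fold change -4.28 ± 0.37, adjusted p = 1.8e-09). ANKRD1, a stretch-responsive nuclear factor of heart muscle, had 34.9, 20.5 and 35 CPM at 2 days and 9.44, 9.32 and 8.15 CPM at 6 days (log2 fold change -1.76 ± 0.20, adjusted p = 2.7e-06). RCAN1, a target and inhibitor of calcineurin, had 325, 318 and 318 CPM at 2 days and 128, 123 and 113 CPM at 6 days (log2 fold change -1.40 ± 0.08, adjusted p = 6.9e-13). NPPB and ANKRD1 had been above control at 2 days (3.17 ± 0.33 and 2.12 ± 0.21), and after 6 days neither was called against control (-1.11 ± 0.49 and 0.37 ± 0.23). NPPA, the atrial peptide, had 0, 0.205 and 0.240 CPM at 2 days and 0, 0.109 and 0.232 CPM at 6 days, too few to compare (log2 fold change -0.17 ± 1.13, adjusted p = 0.92). The cardiac regulators GATA6 (-1.33) and TBX3 (-0.44) were lower. Among 18 calcium-handling genes 3 were higher and 5 lower, shares near the 19.8% and 23.0% over all genes, and 6 and 2 with library totals alone. TRPC1, a calcium-permeable channel, was higher (log2 fold change 1.13 ± 0.12, adjusted p = 8.6e-08).

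Immediate early genes report recent signalling through growth factor and stress kinases. Of 27 tested genes 14 were lower after 6 days and 2 higher, with a median of -0.41. KLF4, a zinc finger factor, had 54.4, 48.9 and 51 CPM at 2 days and 14, 13.2 and 13.2 CPM at 6 days (log2 fold change -1.93 ± 0.10, adjusted p = 2.1e-13), and DUSP5, a phosphatase of ERK, had 173, 184 and 188 CPM at 2 days and 75.4, 85 and 76.3 CPM at 6 days (log2 fold change -1.20 ± 0.08, adjusted p = 2.3e-11). FOS (-0.09) and JUN (-0.08), the founding AP-1 subunits, were not called. Of 28 growth factors and receptors 16 were lower and 2 higher, and 8 were higher with library totals alone. HBEGF, a ligand of the EGF receptor, had 98, 87.6 and 100.3 CPM at 2 days and 33, 32.9 and 31.9 CPM at 6 days (log2 fold change -1.55 ± 0.09, adjusted p = 1.6e-12), and PDGFRB, a receptor for platelet-derived growth factor, had 60.2, 70.3 and 68.5 CPM at 2 days and 22.8, 23.7 and 25.2 CPM at 6 days (log2 fold change -1.47 ± 0.09, adjusted p = 6.5e-12). IGF1R, the insulin-like growth factor receptor, fell from 219, 243 and 251 to 89.2, 94.9 and 90.8 CPM (-1.37).

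Notch, Wnt and Hedgehog genes held large changes in both directions. Of 25 tested 13 were lower and 4 higher, and 8 and 6 with library totals alone. HES1, a repressor induced by Notch, had 13.6, 9.24 and 12.4 CPM at 2 days and 2.25, 2.34 and 1.71 CPM at 6 days (log2 fold change -2.50 ± 0.21, adjusted p = 9.6e-10), and JAG1, a Notch ligand, had 125, 129 and 140.5 CPM at 2 days and 41.7, 41.3 and 36.8 CPM at 6 days (log2 fold change -1.72 ± 0.10, adjusted p = 2.9e-12). SFRP1, a secreted inhibitor of Wnt, had 34.1, 32.1 and 36 CPM at 2 days and 188, 175 and 191 CPM at 6 days (log2 fold change 2.44 ± 0.08, adjusted p = 1.2e-16). The groups were apart for all 3 genes, as for 52.8% of all tested genes in either direction. Relative to control JAG1 was higher at both exposures (3.27 ± 0.12 and 1.55 ± 0.12) and HES1 lower at both (-0.63 ± 0.17 and -3.12 ± 0.20), while SFRP1 was lower at 2 days (-0.90 ± 0.08) and higher after 6 days (1.54 ± 0.08).

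Senescence genes were mixed, with 9 of 23 tested higher after 6 days and 8 lower (19.8% and 23.0% over all genes). LMNB1, the lamin whose loss marks senescent cells, had 56.5, 45 and 51.9 CPM at 2 days and 83.4, 79.1 and 76.8 CPM at 6 days (log2 fold change 0.64 ± 0.09, adjusted p = 1.9e-06), under its controls of 217, 232 and 224 CPM in both groups. LMNA, the lamin of differentiated cells, had 459, 428 and 463 CPM at 2 days and 248, 215 and 258 CPM at 6 days (log2 fold change -0.91 ± 0.09, adjusted p = 1.9e-08). CDKN2B, an inhibitor of CDK4, had 97.2, 117 and 91.7 CPM at 2 days and 41.9, 47.3 and 44 CPM at 6 days (log2 fold change -1.20 ± 0.10, adjusted p = 4.9e-10), and CDKN2A was lower too (-0.71). IGFBP3, a secreted binder of insulin-like growth factors, fell from 621, 554 and 554 to 254, 229 and 211 CPM (-1.32).

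Of 32 lysosome and autophagy genes 9 were higher after 6 days and 5 lower (19.8% and 23.0% over all genes). With library totals alone 15 were higher. CTSS, the lysosomal protease named among the largest rises, had 2.52, 2.26 and 2.52 CPM at 2 days and 13.2, 16.3 and 12.3 CPM at 6 days, and CTSL, another cathepsin, had 37.9, 42.1 and 40.5 CPM at 2 days and 69.5, 65.2 and 63.1 CPM at 6 days (log2 fold change 0.72 ± 0.09, adjusted p = 3.7e-07). Of 20 genes of MHC class I presentation 3 were higher and 4 lower, shares near or under the 19.8% and 23.0% over all genes, and 5 and 2 with library totals alone. HLA-E, a ligand of natural killer receptors, was higher (log2 fold change 0.59 ± 0.11, adjusted p = 0.00013), and TAP1, the peptide transporter that is also interferon-induced, was lower (log2 fold change -0.62 ± 0.10, adjusted p = 2.6e-05).

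Of 28 tested topoisomerase and anthracycline-handling genes 8 were higher and 13 lower (19.8% and 23.0% over all genes). TOP2B, the topoisomerase II of non-dividing cells, had 186, 189 and 201 CPM at 2 days and 168, 179.8 and 160.2 CPM at 6 days (log2 fold change -0.18 ± 0.08, adjusted p = 0.077) and was not called, though the fit of the compared groups alone called it lower. AKR1B10, an aldo-keto reductase, had 9.88, 10.3 and 10.8 CPM at 2 days and 3.23, 2.40 and 2.45 CPM at 6 days (log2 fold change -1.95 ± 0.21, adjusted p = 7.6e-08), and AKR1C3, which reduces doxorubicin to its alcohol, had 15, 14.9 and 17.6 CPM at 2 days and 7.62, 9.54 and 8.34 CPM at 6 days (log2 fold change -0.90 ± 0.13, adjusted p = 3.4e-06). AKR1C3 has close copies among the AKR1C genes, so reads could be split between them. ABCC5, an exporter of drug conjugates, was higher (0.38).

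Keratins are filament proteins of epithelia and of some cells under stress. Of 10 tested epithelial markers 5 were lower and 1 higher, and their summed level was 304 to 331 CPM at 2 days and 122 to 130.03 CPM at 6 days. KRT18 had 202, 178 and 200.1 CPM at 2 days and 43.4, 39.4 and 43.4 CPM at 6 days (log2 fold change -2.20 ± 0.11, adjusted p = 2.1e-13), and KRT17 had 19.3, 16 and 17.1 CPM at 2 days and 3.23, 3.54 and 3.61 CPM at 6 days (log2 fold change -2.33 ± 0.16, adjusted p = 3.8e-11). The 4 tested leukocyte markers summed to 7.41 to 8.83 CPM at 2 days and 12.6 to 14.99 CPM at 6 days. PTPRC, the pan-leukocyte antigen CD45, had 1.66, 1.51 and 2.76 CPM at 2 days and 3.35, 3.87 and 3.43 CPM at 6 days (log2 fold change 0.84 ± 0.24, adjusted p = 0.0056), the lysosomal protein gene CD68 of macrophages was also higher (log2 fold change 1.19 ± 0.22, adjusted p = 0.00011), CD14 was lower (-1.74), and 1 was not called. The 8 untested leukocyte markers had 0 to 33 counts each over the 3 libraries at 2 days and 0 to 31 at 6 days, CD3E and TYROBP being at 0 in both groups. The 6 tested endothelial markers summed to 22.7 to 27.4 CPM at 2 days and 23.1 to 24.3 CPM at 6 days, with 1 higher, 1 lower and a median log2 fold change of -0.28. The 6 neuronal ones summed to 31.5 to 36.7 CPM and 44.2 to 55.7 CPM, with 2 higher, 1 lower and a median of -0.32, and 0 were lower without replicate 1 or 2 of either group, with library totals alone, with no low-count filter or in the fit of the compared groups alone, and 2 without replicate 3 of 6 days. No red blood cell marker had enough counts to test. The part of other cells in the results was not tested.

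The libraries of 4 days show where the middle exposure lay between those of 2 and 6 days. Among the 3437 genes called higher after 6 days the mean of 4 days lay between the means of 2 and 6 days for 2566 (74.7%), and among the 3977 called lower for 2769 (69.6%). Against the midpoint of 2 and 6 days on the log2 scale, 2729 of all genes differed at 4 days (15.8%), 1246 above it (7.19%) and 1483 below it (8.56%). Of the genes called higher after 6 days 777 were above the midpoint and 38 below. Of those called lower 1113 were below and 91 above, so in both kinds most genes off the midpoint were nearer to the level of 6 days. The titles give these exposures as 48, 96 and 112 hours, and on that scale 4 days was also closer in time to the longest exposure. The midpoint of levels is then not the midpoint in time, and the pace of the change was not tested. CXCL8 lay above its midpoint (1.08 ± 0.07, adjusted p = 2.1e-10) and OASL below (-1.65 ± 0.14, adjusted p = 1.8e-08). C3 (-0.15 ± 0.08, adjusted p = 0.22) and IL6 (-0.22 ± 0.08, adjusted p = 0.075) were not told apart from it. MKI67 stood above its midpoint (0.38 ± 0.07, adjusted p = 0.00051) and TP53I3, a p53 target, below (-1.15 ± 0.08, adjusted p = 1.3e-09). TP53I3 had 176, 161 and 157 CPM at 2 days, 51.9, 47.6 and 47.7 CPM at 4 days and 77.7, 71.8 and 65.7 CPM at 6 days, so its lowest level was at 4 days. These contrasts use the libraries of 2 and 6 days again. Without replicate 1 of 4 days the count against the midpoint was 1531.

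More genes were detected after 6 days. Genes with at least 1 count numbered 28301, 26652 and 27614 at 2 days and 29409, 29787 and 30474 at 6 days. At an equal total of 14835743 counts, by exact expectation, the numbers were 26839, 26465 and 26863 at 2 days and 29202, 28987 and 28942 at 6 days, and the groups did not overlap. The protein-coding genes among these were 15457, 15365 and 15446 at 2 days and 16007, 15983 and 15971 at 6 days, and lincRNA and antisense genes were 4961, 4817 and 4944 and 5630, 5591 and 5518. The TMM factors were 0.936 to 0.939 at 2 days and 1.04 to 1.06 at 6 days, so equal totals are not equal depth on the TMM scale. With equal TMM-scaled totals, an alternative chosen after the data were seen, the numbers of all genes were 27056, 26652 and 27071 at 2 days and 28886, 28750 and 28663 at 6 days, and the mean difference between the groups went from 2321 to 1840.00 genes. An exact two-sided permutation test of the numbers at equal totals gave p = 0.1 for each of the 3 sets, the smallest that 3 libraries against 3 allow. Among tested genes the 13282 protein-coding ones had a median log2 fold change of -0.026, with 21.3% higher and 27.0% lower, and the 2560 long non-coding ones had 0.17, with 16.5% higher and 9.49% lower. The median of the non-coding genes by itself is of the size of the shift between scalings given above. That shift applies to protein-coding and non-coding genes alike. With protein-coding genes cut into 5 groups of equal size by exon length, the shortest group had a median of -0.11 and the longest 0.038.

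**Figure D5:**
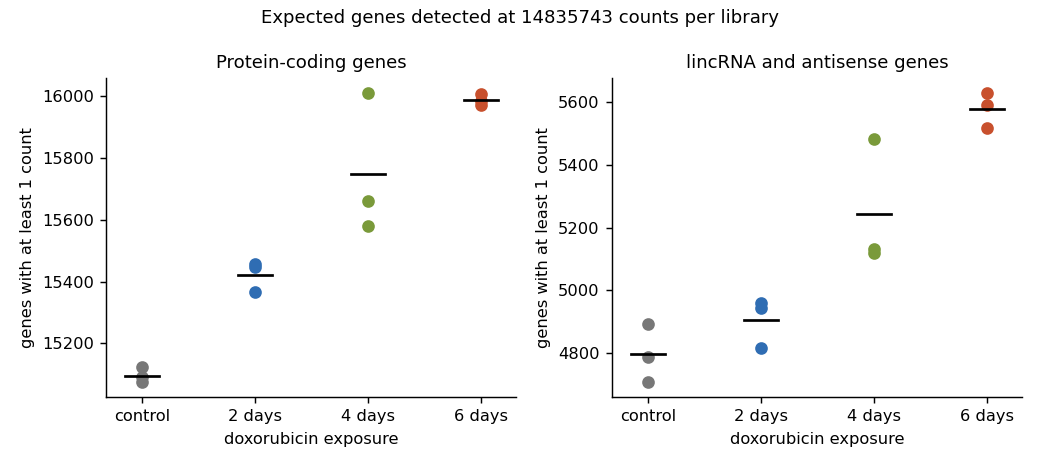
Each point is the expected number of genes with at least 1 count in 1 library after thinning to 14835743 counts, for protein-coding genes and for lincRNA and antisense genes against exposure, with a bar at the mean of 3. The libraries of 6 days hold 15971 to 16007 protein-coding genes and those of 2 days 15365 to 15457.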

How the data were processed

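Per the labels' protocols, total RNA of AC16 cells was made into 12 libraries, 3 per group, with the NEBNext Ultra kit for RNA. For 60607 Ensembl gene IDs the authors deposited raw, unnormalized counts, 1 column per library. The submitters' processing notes name fastp 0.23.2, Trimmomatic 0.38, STAR 2.7.8, HTSeq 0.13.5 and GRCh38.p13, with no roles. Whether counting used strand is not stated in those notes, the labels or the headers.

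Genes passed filterByExpr (minimum count 10, minimum total 15), which left 17320. Libraries were scaled by TMM, all 12 were fitted with a mean per group in edgeR 4.0.16 under R 4.3.3 (robust glmQLFit on 8 residual degrees of freedom, common BCV, the biological coefficient of variation, 0.0887), and contrasts were tested with glmQLFTest. The SE is the log2 fold change divided by the square root of F. Symbols were matched for 15394 tested genes and GENCODE release 29 positions for 17099. No 2 libraries of a group agreed within sampling noise, with chi-square values of 3.94 to 20.1 per degree of freedom. Precision is limited by 3 libraries per group.

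The members and gene lists were chosen with earlier results of these data known, so list counts are descriptions without list tests. The named genes were the 10 largest rises and falls (called, without overlap, averaging 10 CPM or more in 1 group and with an ordinary symbol), up to 3 called members with the smallest p per list, and a fixed panel. Some genes that this rule names are not reported here. Other list members named, and genes at the same locus, were chosen after their values were seen. The alternatives were other scalings and filters, DESeq2 1.42.0, a block for the replicate number, a fit of the libraries of 2 and 6 days by themselves, and fits without single libraries.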

Additional observations from a re-analysis of the deposited data

How the results depend on the processing

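The 7414 calls between 6 and 2 days numbered 7015 to 7871 under the other scalings, filters, DESeq2 and the fit of the compared groups alone, and 6308 to 6744 when single libraries of either group were left out. The scaling moved the split: with library totals alone 5265 genes were higher and 2538 lower, 1303 of them at least 2-fold higher, and 5975 of the 7414 calls were shared in direction. Against the midpoint, leaving out single libraries gave 1531 to 2425 genes, with 648 to 1096 above and 883 to 1397 below. The lowest of these came without replicate 1 of 4 days, and the cause was not tested. Genes with no call changed sign as follows, and their direction is not read. With library totals alone BAX was at 0.11, FOS at 0.068, JUN at 0.077 and PCNA at 0.075. Leaving out single libraries gave -0.12 to 0.0044 for BAX and -1.18 to 0.44 for NPPA. With equal TMM-scaled totals in place of equal totals, the mean excess of detected genes after 6 days was 462 in place of 564 for protein-coding genes and 533 in place of 672 for lincRNA and antisense genes. Over the gene lists, 1092 counts were recomputed and 83 moved by over 1.5 times.

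The groups share replicate numbers, and whether these pair the libraries is not stated. The deviations of same-numbered libraries of 2 and 6 days from their group means correlated at 0.021, -0.025 and -0.043. These values show no sign of a pairing, though 3 libraries per group cannot exclude it. With the replicate number as a block 7151 genes were called, 3304 higher and 3847 lower, and 7103 of the 7414 calls were shared. Depth limits genes such as NPPA, MMP1, BST2 and CCL5, which had few counts in some or all libraries. The list medians rest on lists chosen with earlier results of these libraries known.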
